A study of Mus musculus with 8 samples.

Results

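The Hippo pathway genes described here are 10 transcripts that encode the kinases LATS1 and LATS2, the coactivators YAP (*Yap1*) and TAZ (*Wwtr1*), the DNA-binding factors TEAD1, TEAD2 and TEAD4, and *Ctgf*, *Cyr61* and *Amotl2*, which are transcribed in response to YAP and TAZ. They were chosen by name, and all 10 were found among the 26590 gene symbols of the deposited table. Each symbol has 1 to 6 transcript rows, 29 rows in all, and the row with the highest average of both genotype means stands for the gene. The samples were whole hearts of C57BL/6J mouse fetuses, 4 of genotype *Dio3*+/+ and 4 of genotype *Dio3*-/-, whose cells all carry an inactivated gene for the type 3 deiodinase, the enzyme that clears thyroid hormones. The *Dio3*+/+ hearts are called wild-type below. The labels name no treatment, and whether the fetuses were littermates is not stated for these samples. Each RNA sample came from an individual fetus, and total RNA was sequenced after depletion of ribosomal RNA. All 8 titles name E13.5, but the age recorded for *Dio3*-/- hearts 3 and 4 is E18.5, and the study's methods name a stage 1 day later than the titles. Every difference between the genotypes below includes these 2 hearts, so age and genotype cannot be told apart for them.

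In the Hippo pathway, a cascade of kinases ends in LATS1 and LATS2, which phosphorylate YAP and TAZ and keep them out of the nucleus. When the cascade is quiet, YAP and TAZ enter the nucleus, bind TEAD factors and switch on genes of growth and of the cell's contact with its surroundings. In the fetal heart the pathway is known for restraining the proliferation of cardiomyocytes, and TEAD factors also bind the MCAT element of many muscle gene promoters. The pathway acts mainly through phosphorylation and the location of YAP and TAZ, which RNA sequencing does not measure, so the target transcripts are the nearest readout here.

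The promoters of some target genes and of *Yap1* are shown. They were picked because the letters of the TEAD recognition sequence occur in them close to the start of transcription. The motif searched was CATTCC, the core of the MCAT element, or GGAATG on the opposite strand, in the 250 bases before each start site of the RefSeq promoter table (build GRCm38.p6). The deposited table names no genome build, so these coordinates belong to RefSeq only. The capitals mark the motif.

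*Cyr61*, listed by RefSeq as Ccn1 (chr3:145649986-145650235, minus strand): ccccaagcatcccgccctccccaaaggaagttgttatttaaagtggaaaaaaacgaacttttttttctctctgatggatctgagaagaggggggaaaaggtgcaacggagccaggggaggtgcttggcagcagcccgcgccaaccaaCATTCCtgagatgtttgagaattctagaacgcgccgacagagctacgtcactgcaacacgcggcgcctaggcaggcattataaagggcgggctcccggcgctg

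*Amotl2* (chr9:102717554-102717803, plus strand): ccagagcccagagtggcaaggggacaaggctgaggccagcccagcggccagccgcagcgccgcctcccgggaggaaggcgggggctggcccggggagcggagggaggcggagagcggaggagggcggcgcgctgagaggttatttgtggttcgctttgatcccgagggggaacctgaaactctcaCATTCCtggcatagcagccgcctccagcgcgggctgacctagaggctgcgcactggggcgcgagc

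*Ankrd1*, another classical target (chr19:36119845-36120094, minus strand): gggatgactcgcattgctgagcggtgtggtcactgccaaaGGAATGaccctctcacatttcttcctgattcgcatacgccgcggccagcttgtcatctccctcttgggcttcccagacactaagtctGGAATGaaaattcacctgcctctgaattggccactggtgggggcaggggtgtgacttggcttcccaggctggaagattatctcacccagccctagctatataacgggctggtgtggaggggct

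*Yap1* itself (chr9:8004597-8004846, minus strand): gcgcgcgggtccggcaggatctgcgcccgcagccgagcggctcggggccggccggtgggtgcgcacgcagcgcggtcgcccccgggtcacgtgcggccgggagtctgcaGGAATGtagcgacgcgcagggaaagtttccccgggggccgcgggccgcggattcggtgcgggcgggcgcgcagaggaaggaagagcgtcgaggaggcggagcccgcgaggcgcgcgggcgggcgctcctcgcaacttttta

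The motif begins 103 bases before the *Cyr61* start and 65 bases before the *Amotl2* start. In *Ankrd1* it begins 210 and 123 bases before the start, and in *Yap1* 141 bases before it, on the opposite strand in both genes. Among the members, 7 matched a promoter window (*Ctgf*, *Tead1* and *Tead4* did not). The motif was in a window of 4 of them, *Yap1*, *Wwtr1*, *Cyr61* and *Amotl2*. The windows of *Lats1*, *Tead2* and *Lats2*, itself a target of YAP, did not hold it. Counted by window, 5 of the 9 windows of these members held the motif, and the overlapping *Wwtr1* windows share the same site. Of all 32851 windows in the RefSeq table, 12.6% held the motif. A match of these letters is a description and not evidence of binding.

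Values in the table are the authors' mean of each genotype, read as RPKM (read coverage per length of transcript and size of library), and a coefficient of variation, which is the SD over the 4 hearts as a share of that mean. The coefficient stands in brackets after a mean below. No values of single hearts are part of it, so hearts cannot be named, overlap between the genotypes cannot be read and no heart could be left out. *Dio3* itself averaged 0.35 RPKM (1.23) in wild-type and 0.13 RPKM (0.76) in *Dio3*-/- hearts, too little to be tested, so it does not check the genotypes. Of 5 tested genes of the thyroid hormone list, 4 rose, among them *Klf9* from 1.86 to 8.48 RPKM (adjusted p = 5.74e-06 by limma). The fifth, the hormone receptor gene *Thra*, had 46.32 and 46.45 RPKM. The study itself had reported the 4 (*Klf9*, *Hr*, *Dbp* and *Art3*) as raised in *Dio3*-/- hearts, so their rise is not an independent check. The hearts are described as male, yet *Xist* had means of 35.64 RPKM (0.99) and 39.97 RPKM (0.55), and the Y-linked *Eif2s3y* 9.38 RPKM (1.04) and 7.29 RPKM (1.46). Both transcripts were found in each genotype, so neither group reads as hearts of a single sex. The sex of each heart cannot be read from genotype means, and sex was not part of the test. The 5 cardiomyocyte markers, of which *Tnnt2* was the most abundant (1212 and 1281 RPKM), had a summed mean of 2079 RPKM in wild-type and 2722 RPKM in *Dio3*-/- hearts, all 5 higher and 2 called by limma. The 6 red cell markers had a summed mean of 37270 RPKM in wild-type and 12750 RPKM in *Dio3*-/- hearts, all 6 lower in *Dio3*-/- and *Hbb-bh1* called (adjusted p = 0.047 by limma), and the 8 liver markers had 15.98 and 108.1 RPKM, all 8 higher and none called by limma (8 with an unadjusted p under 0.05). Over all genes tested, 2.29% were called by limma and 19.7% had an unadjusted p under 0.05. The liver markers were uneven between hearts in both genotypes, with coefficients from 0.50 to 1.41 in wild-type and from 0.89 to 1.26 in *Dio3*-/- hearts. The part of these shifts in the results below was not tested. In whole hearts, fewer cells of a type and less RNA per cell cannot be told apart.

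The first comparison asked whether Hippo pathway transcripts differ between *Dio3*-/- and wild-type hearts. None of the 10 members differed with an adjusted p under 0.05 by limma, and none had an unadjusted p under 0.05. Welch's test called none of them either, but it called only 27 of the 14657 genes tested. Of the 10, 5 had a higher and 5 a lower mean in *Dio3*-/- hearts, and 3 and 7 after centring on the median log2 difference of all rows, while 63.3% of all genes tested had a higher mean. Among the 14657 genes tested by their highest row, 2.29% were called in either direction, 1.91% higher and 0.382% lower, and 19.7% had an unadjusted p under 0.05. At a share of 2.29% a count of 0 among 10 is near the background and is not a result about the members. The intervals say more. Differences are on the log2(RPKM + 0.5) scale, and over the 10 members their 95% intervals lay within 0.78-fold and 1.34-fold, so changes beyond these folds were outside the interval of every member. The median absolute log2 difference was 0.09 among the members and 0.09 over all genes tested.

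**Figure D1:**
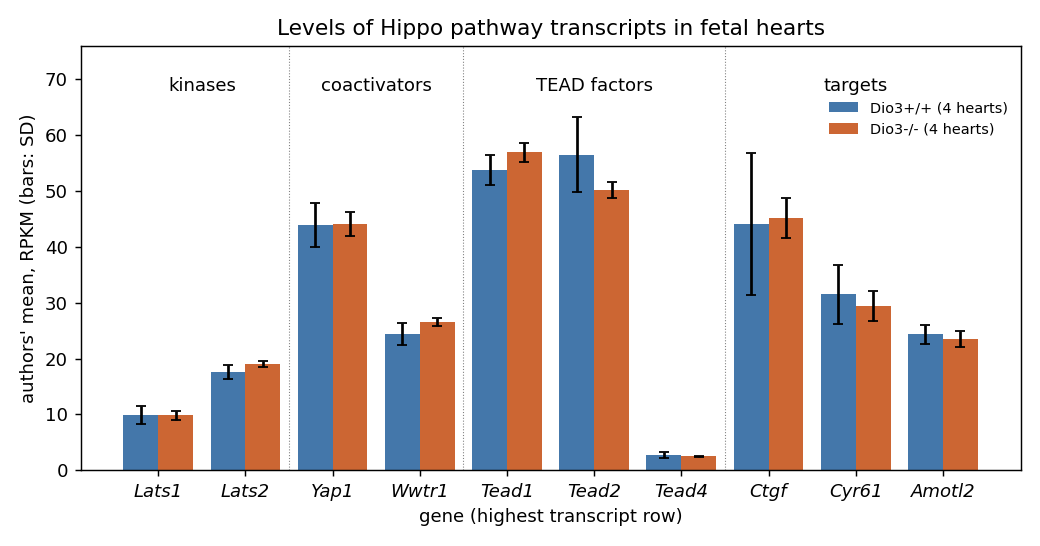
Authors' mean level in RPKM of each member in 4 *Dio3*+/+ (blue) and 4 *Dio3*-/- (orange) hearts, grouped by role, with bars for the SD between hearts. The members span from 2.47 RPKM for *Tead4* to 56.95 RPKM for *Tead1* in *Dio3*-/- hearts, and the genotypes' SD ranges meet for each of the 10.

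The kinases LATS1 and LATS2, which hold YAP and TAZ in the cytoplasm, were at different levels from each other and close between genotypes. *Lats1* averaged 9.91 RPKM (0.16) in wild-type and 9.87 RPKM in *Dio3*-/- hearts (0.08). The levels were nearly equal, and the log2 difference was −0.01 (SE, its standard error, 0.11, adjusted p = 0.985 by limma). *Lats2* averaged 17.62 RPKM (0.07) and 19.07 RPKM (0.03), with a log2 difference of 0.11 (SE 0.06, adjusted p = 0.336 by limma). *Lats2* is also a transcriptional target of YAP and forms a feedback loop with it. By the authors' means, *Lats2* was 1.78 times *Lats1* in wild-type and 1.93 times in *Dio3*-/- hearts, and in both genotypes the gap between them was larger than the sum of their SDs.

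All 6 transcript rows of *Lats2* had positive values, with log2 differences from 0.06 to 0.15 and row averages from 9.80 to 18.34 RPKM. These rows share reads and are not independent. The largest difference was in a row with means of 13.09 RPKM (0.08) and 14.62 RPKM (0.05), with an unadjusted p of 0.041 and an adjusted p of 0.241 by limma, from a fit across all rows. None of the 29 member rows was called by limma or by Welch's test, and 3 had an unadjusted p under 0.05, of which 2 belong to *Lats2* and 1 to *Tead2*.

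The coactivators YAP and TAZ carry the signal into the nucleus and do not bind DNA on their own. *Yap1* had means of 43.92 RPKM (0.09) in wild-type and 44.10 RPKM (0.05) in *Dio3*-/- hearts. The genotypes were level, with a log2 difference of 0.01 (SE 0.07, adjusted p = 0.977 by limma) and a 95% interval from 0.90-fold to 1.12-fold. Its sign turned (to −0.03) once the median log2 difference of all rows was subtracted. *Wwtr1* had means of 24.38 RPKM (0.08) and 26.55 RPKM (0.03). That is a change of 8.90%, a log2 difference of 0.12 (SE 0.06, adjusted p = 0.324 by limma) with an interval from 0.99-fold to 1.19-fold, the most positive difference among the members. The level of *Yap1* was 1.80 times that of *Wwtr1* in wild-type and 1.66 times in *Dio3*-/- hearts. One of the 3 *Yap1* rows was far lower than the others, with means of 5.44 RPKM (0.06) and 5.87 RPKM (0.04) and a log2 difference of 0.10 (adjusted p = 0.415 by limma). The 2 rows of *Wwtr1* were nearly the same.

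TEAD factors bring YAP and TAZ to DNA, and all 4 genes of the family were transcribed in these hearts. *Tead1*, the family member best known from heart muscle, had means of 53.76 RPKM (0.05) in wild-type and 56.95 RPKM (0.03) in *Dio3*-/- hearts, a log2 difference of 0.08 (SE 0.05, adjusted p = 0.406 by limma). Its 4 rows shared that difference. *Tead2*, a factor of early embryos and progenitor cells, had means of 56.54 RPKM (0.12) and 50.21 RPKM (0.03). That is a change of −11.2%, and the log2 difference of −0.17 (SE 0.08, adjusted p = 0.285 by limma) had an interval from 0.79-fold to 1.005-fold. Its 4 rows all had negative values, with log2 differences from −0.18 to −0.17, and 1 of them had an unadjusted p of 0.048 (adjusted p = 0.261 by limma). *Tead4* was the least abundant member, with means of 2.74 RPKM (0.17) and 2.47 RPKM (0.04) and a log2 difference of −0.13 (SE 0.10, adjusted p = 0.568 by limma). *Tead3*, the remaining family gene and not a member, had 10.70 RPKM (0.13) and 10.60 RPKM (0.07).

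In the authors' means, *Tead2* made up 45.7% and *Tead1* 43.5% of the summed TEAD level in wild-type hearts. In *Dio3*-/- hearts the order was the other way round, with 41.8% for *Tead2* and 47.4% for *Tead1*. The sum itself was 123.7 RPKM in wild-type and 120.2 RPKM in *Dio3*-/- hearts. The gap between *Tead1* and *Tead2* was 2.78 RPKM in wild-type hearts, less than the sum of their SDs (9.47 RPKM), and 6.74 RPKM in *Dio3*-/- hearts, more than the sum (3.22 RPKM). Neither gene was called between genotypes, and the change of order itself was not tested, since the ratio needs values of single hearts.

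**Figure D2:**
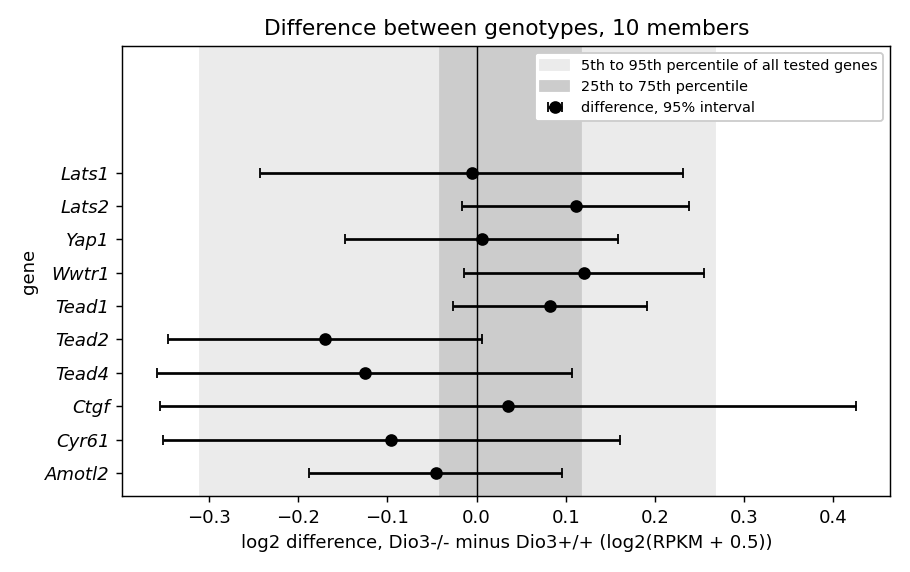
Log2 difference between *Dio3*-/- and *Dio3*+/+ hearts for each member (points) with its 95% interval from limma, on the log2(RPKM + 0.5) scale, over the central ranges of all 14657 genes tested (grey). Each of the 10 intervals includes 0, and *Ctgf* has the widest.

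The targets *Ctgf*, *Cyr61* and *Amotl2* were well above most genes in level. *Ctgf*, which encodes a secreted matrix protein and is a widely used readout of YAP, had means of 44.12 RPKM (0.29) in wild-type and 45.22 RPKM (0.08) in *Dio3*-/- hearts. The means were close while the spread between wild-type hearts was the widest of all members, and the log2 difference was 0.04 (SE 0.17, adjusted p = 0.940 by limma) with an interval from 0.78-fold to 1.34-fold. Its sign also turned with centring. *Cyr61*, a related matrix protein, averaged 31.49 RPKM (0.17) and 29.44 RPKM (0.09), with a log2 difference of −0.10 (SE 0.11, adjusted p = 0.709 by limma). *Amotl2*, which encodes a junction protein that binds YAP and holds it back, averaged 24.32 RPKM (0.07) and 23.54 RPKM (0.06), with a log2 difference of −0.05 (SE 0.06, adjusted p = 0.751 by limma). Its 4 rows had log2 differences from −0.06 to −0.05. *Amotl2*, the target with the narrowest interval, lay between 0.88-fold and 1.07-fold.

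Ordered by level per kilobase in wild-type hearts, the members ran from *Tead2*, *Tead1*, *Ctgf* and *Yap1* through *Cyr61*, *Wwtr1* and *Amotl2* to *Lats2*, *Lats1* and *Tead4*. Neighbours among *Tead2*, *Tead1*, *Ctgf* and *Yap1* did not differ by more than the sum of their SDs, nor did those among *Cyr61*, *Wwtr1* and *Amotl2*. The gaps from *Yap1* to *Cyr61*, from *Amotl2* to *Lats2*, from *Lats2* to *Lats1* and from *Lats1* to *Tead4* were larger than that sum. In *Dio3*-/- hearts *Tead1* came before *Tead2*, the rest kept this order, and *Wwtr1* also stood above *Amotl2* by more than the sum (3.01 against 2.21 RPKM). The average of *Tead1* over both genotypes exceeded that of 95.3% of gene symbols in the table, and that of *Tead4* 53.9%.

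The next comparison took the rest of the pathway, 62 further genes in 5 lists, of which 58 were above 1 RPKM in at least 1 genotype. *Nt5e* and *Myh6* were called, both higher in *Dio3*-/- hearts, which is 3.45% of the 58 beside 2.29% of all genes. By Welch's test *Nt5e* alone was called. The study, by its own Welch's test on these hearts, listed *Nt5e*, *Myh6*, *Tjp1* and *Birc5* as raised (q under 0.05). The calls of *Nt5e* and *Myh6* are therefore not independent of the study's, and *Tjp1* and *Birc5* were not called here. An unadjusted p under 0.05 was found for 18 of the 58, beside 19.7% of all genes tested. The 58 genes were measured in the same hearts and are not independent, and this count was not tested. The 58 genes' median log2 difference was −0.01, and that of all genes tested was 0.04. The median of all genes is above 0, so a value between 0 and 0.04 turns its sign with centring.

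Of the 15 genes of the upstream cascade and its scaffolds, none was called by limma in either direction. Beside 19.7% of all genes tested, 5 of the 15 had an unadjusted p under 0.05. These were *Wwc2*, *Taok2*, *Nf2*, *Mob1b* and *Taok1*, all higher in *Dio3*-/- hearts. The list's median log2 difference was 0.04. The kinases *Stk3* and *Stk4*, which phosphorylate LATS, had log2 differences of −0.07 and −0.01, and their adaptor *Sav1* −0.01. *Mob1b*, listed as Mobkl1a and encoding a LATS cofactor, averaged 29.13 RPKM (0.10) and 33.75 RPKM (0.04), with a log2 difference of 0.21 (adjusted p = 0.147 by limma). *Wwc2*, a scaffold that activates LATS, averaged 19.72 RPKM (0.06) and 22.62 RPKM (0.03), with a log2 difference of 0.19 (adjusted p = 0.087 by limma). *Nf2*, the scaffold merlin, had 23.81 RPKM (0.03) and 26.29 RPKM (0.04), with an adjusted p of 0.139 by limma. The lowest differences were those of the cadherins *Fat4* (−0.49) and *Dchs1* (−0.25), both with a wide spread in wild-type hearts.

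Among 17 partners and regulators of YAP, TAZ and TEAD, 16 were tested and none was called by limma, with a median log2 difference of −0.003. An unadjusted p under 0.05 was found for 4 of the 16, beside 19.7% of all genes tested. The junction protein *Tjp1* came nearest, with means of 44.43 RPKM (0.05) and 51.40 RPKM (0.03), a log2 difference of 0.21 (SE 0.05, adjusted p = 0.060 by limma). The study's own test had listed *Tjp1* as raised. *Vgll4*, which competes with YAP for TEAD, had 27.95 RPKM (0.10) and 27.45 RPKM (0.05). *Amot*, a relative of *Amotl2*, had means of 18.79 RPKM (0.43) in wild-type and 10.36 RPKM (0.14) in *Dio3*-/- hearts, a log2 difference of −0.83 (SE 0.25, adjusted p = 0.119 by limma). *Vgll2*, a TEAD partner of skeletal muscle, had 2.78 RPKM (1.65) and 0.27 RPKM (0.90), a difference smaller than the SD of the wild-type hearts. *Vgll1* was at 0.04 and 0.01 RPKM.

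**Figure D3:**
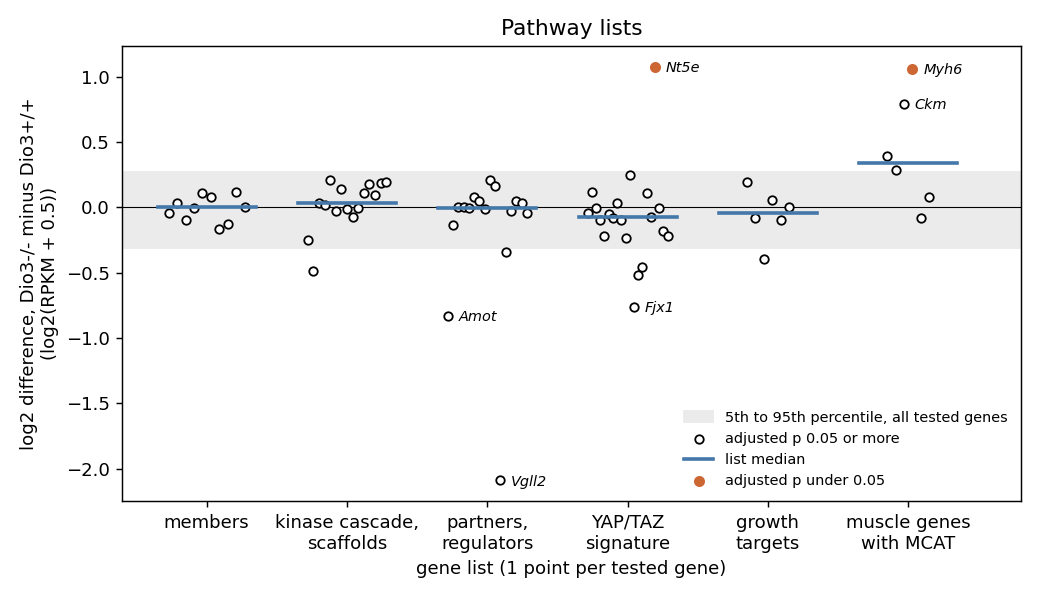
Log2 difference between *Dio3*-/- and *Dio3*+/+ hearts of each tested gene in the members and in 5 lists of the pathway, with the list median (line), over the 5th to 95th percentile of all genes tested (grey). *Nt5e* and *Myh6* are the called genes (filled), and the members lie inside the grey band.

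A signature of 22 genes that respond to YAP and TAZ in many cell types holds 4 of the members (*Lats2*, *Ctgf*, *Cyr61* and *Amotl2*). Of its other 18 genes, 16 were tested and 13 had a lower mean in *Dio3*-/- hearts. The median log2 difference of the 16 was −0.09. Over all genes tested, 63.3% had a higher mean and the median was 0.04. The count of lower means was not tested, and genes measured in the same hearts are not independent. Of the 20 tested genes of the whole signature, 4 had an unadjusted p under 0.05, beside 19.7% of all genes tested. Among the 13, *Fjx1*, *Igfbp3*, *Dock5*, *Rbms3* and *Myof* had coefficients of at least 0.3 in wild-type hearts. Of all genes with so wide a spread, 84.8% had a lower mean in *Dio3*-/- hearts. Of the 16, *Nt5e* alone was called by limma. It encodes the cell surface enzyme CD73, which makes adenosine, and it rose from 2.25 RPKM (0.11) in wild-type to 5.30 RPKM (0.07) in *Dio3*-/- hearts, a log2 difference of 1.08 (SE 0.08, adjusted p = 0.00034 by limma). *Ankrd1*, a muscle ankyrin repeat protein with the highest level of the list, averaged 311.2 RPKM (0.24) and 337.0 RPKM (0.07), with a log2 difference of 0.11 (adjusted p = 0.734 by limma). *Axl*, a receptor kinase, had 31.51 RPKM (0.13) and 27.00 RPKM (0.06), with an adjusted p of 0.218 by limma. The coagulation receptor *F3* had a log2 difference of 0.25 (adjusted p = 0.132 by limma). *Fjx1* and *Gadd45a* had the lowest differences, −0.76 and −0.52, with adjusted p values of 0.343 and 0.161 by limma. *Foxf2* and *Nuak2* were below 1 RPKM in both genotypes.

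Of 7 growth targets, 6 were tested, none was called by limma and 1 had an unadjusted p under 0.05, beside 19.7% of all genes tested. The target under that threshold was *Birc5*, which encodes the mitotic and survival protein survivin, with means of 40.84 RPKM (0.06) and 46.75 RPKM (0.03) and an adjusted p of 0.084 by limma. It too had been listed as raised by the study's own test. *Ccnd1*, which encodes cyclin D1, had 44.27 RPKM (0.11) and 41.71 RPKM (0.05), *Igf1r* had a log2 difference of 0.05, and *Myc* had 12.44 RPKM in both genotypes. *Gli2* and *Jag1* had log2 differences of −0.40 and −0.10. *Areg* was at 0.10 and 0.16 RPKM.

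Of 6 muscle genes with known MCAT elements, *Myh6*, the α myosin heavy chain, was called, from 459.5 RPKM (0.13) in wild-type to 959.1 RPKM (0.08) in *Dio3*-/- hearts, a log2 difference of 1.06 (SE 0.10, adjusted p = 0.0013 by limma, 0.066 by Welch's test). The list's median log2 difference was 0.34, beside 0.04 over all genes tested. An unadjusted p under 0.05 was found for 4 of the 6, beside 19.7% of all genes tested. This count was not tested, and genes measured in the same hearts are not independent. *Ckm*, muscle creatine kinase, had a log2 difference of 0.79 (adjusted p = 0.102 by limma), the skeletal actin *Acta1* 0.40 (0.086) and the smooth muscle actin *Acta2* 0.29 (0.088). *Tnnt2* had 0.08 (0.765), and *Myh7*, the β chain, −0.08 (0.794). *Myh6* and *Myh7* are also classical thyroid hormone responsive genes. Of the 5 cardiomyocyte markers, 2 were called, *Myh6* and *Ryr2* (24.20 and 36.62 RPKM, adjusted p = 0.023 by limma), beside 2.29% of all genes tested.

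The last comparison took the spread between hearts. The coefficient of variation was lower in *Dio3*-/- than in wild-type hearts for all 10, with medians of 0.045 and 0.105. Over all genes tested it was lower in *Dio3*-/- hearts for 65.4%, with medians of 0.06 and 0.09. *Ctgf* had the largest gap between its coefficients, 0.29 against 0.08. With 2 summaries per gene this is a description, and members measured in the same hearts are not independent.

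Markers of fibroblasts and cushion mesenchyme, cells in which *Ctgf* is known to be active, also had a wider spread in wild-type hearts. The most abundant, *Col3a1*, had 210.6 RPKM (0.39) in wild-type and 182.6 RPKM (0.02) in *Dio3*-/- hearts. *Col1a1*, another collagen chain, had 203.9 RPKM (0.42) in wild-type and 168.3 RPKM (0.01) in *Dio3*-/- hearts, and *Pdgfra* had 34.41 RPKM (0.55) and 27.03 RPKM (0.10). *Postn* and *Dcn* differed from the other 5 markers, with higher means in *Dio3*-/- hearts and narrower spreads, at 143.8 RPKM (0.17) and 147.1 RPKM (0.04) for *Postn* and 63.55 RPKM (0.09) and 64.74 RPKM (0.07) for *Dcn*. The summed mean of the list was 830.2 RPKM in wild-type and 729.7 RPKM in *Dio3*-/- hearts, with coefficients from 0.09 to 0.55 and from 0.01 to 0.10, and 0 of 7 markers were called by limma. The 7 endothelial markers had coefficients from 0.06 to 0.08 and from 0.03 to 0.07, and a summed mean of 251.7 and 268.5 RPKM. The summed means of the other lists were 664.1 and 779.7 RPKM for 4 smooth muscle, 94.64 and 100.8 RPKM for 6 epicardial and 17.57 and 16.27 RPKM for 4 macrophage markers, with none called by limma. In that order, 1, 2 and 0 of them had an unadjusted p under 0.05. So had none of the 7 mesenchymal and 2 of the 7 endothelial markers, beside 19.7% of all genes tested. Among the 58 tested pathway genes, 12 had a coefficient of at least 0.3 in wild-type hearts, a limit set after the values were seen, which is 20.7% beside 6.63% of all genes tested. They were *Vgll2*, *Fjx1*, *Vgll3*, *Gli2*, *Igfbp3*, *Fat4*, *Dock5*, *Amot*, *Dchs1*, *Rbms3*, *Myof* and *Ckm*. All 12 had a lower coefficient in *Dio3*-/- hearts, and 11 of them, all but *Ckm*, had a lower mean. Over all 972 genes with so wide a spread, 84.8% had a lower mean and 87.3% a lower coefficient in *Dio3*-/- hearts. Both counts are near these shares and are not results about the 12 genes. Genes picked for a wide spread in wild-type hearts also tend by that choice to have a lower coefficient in the other group. The share of 20.7% depends on the limit chosen and was not tested. The part of the mesenchymal markers in the spread of *Ctgf* was not tested.

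**Figure D4:**
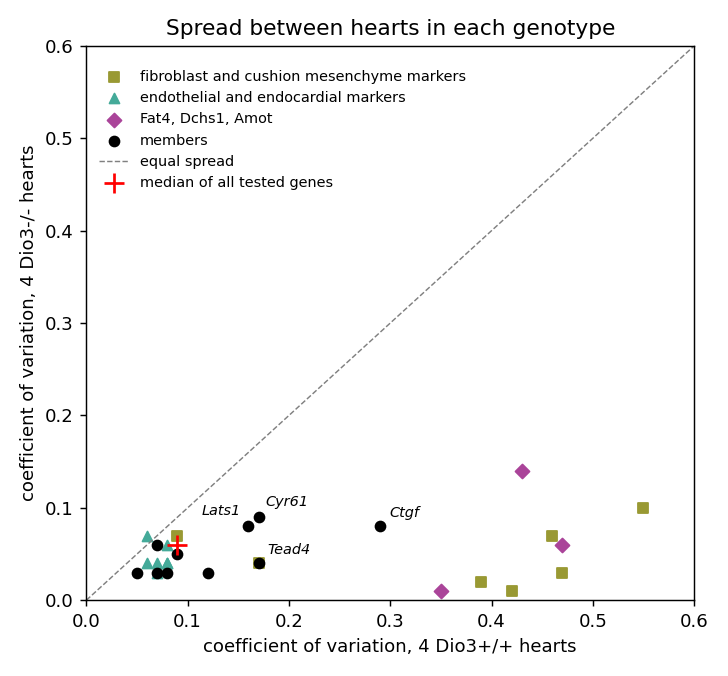
Coefficient of variation over 4 *Dio3*+/+ hearts (horizontal) against that over 4 *Dio3*-/- hearts (vertical) for the members, for *Fat4*, *Dchs1* and *Amot*, and for markers of mesenchyme and endothelium, with the line of equal spread. All 10 members lie under the line, and *Ctgf* is the member farthest to the right, at 0.29 and 0.08.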

How the data were processed

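Total RNA of single fetal hearts, 4 per genotype, was sequenced. Per the study's methods and the submitters' processing notes, the authors used NovoAlign (version 2.08), counted reads with 1 genomic position and scaled all libraries linearly to the smallest. The genome build is not given in the sources used here. Rows carry UCSC transcript identifiers. The authors deposited genotype means, read here as RPKM because the methods filter in that unit and the table names none, and the coefficient of variation, a ratio of SD to mean. The table also holds the authors' fold changes and q-values, which were not used. It gives no read totals. The methods give a range of aligned reads and an average of mapped reads over the samples, so the depth of each single library is not known.

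Because single hearts are not in the table, the test was calculated from the summaries. Means were taken as log2(RPKM + 0.5), their SD was approximated from the coefficient of variation (delta method), and limma (version 3.58.1 in R 4.3.3) moderated the variances along a mean-variance trend, starting from 6 residual degrees of freedom. Benjamini-Hochberg adjustment covered 32703 transcript rows whose mean passed 1 RPKM in either genotype. Called means an adjusted p under 0.05. The procedure was tested on simulated data.

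Members and lists were chosen with earlier results of these data known. All members are named, with *Tead3*. From each pathway list the rule names called genes, the 2 highest and 2 lowest log2 differences and genes below 1 RPKM, of which 1 gene is not reported here. From marker lists it names called genes and the most abundant one, of which several are given here only in the list's sum. Others were chosen after their values were seen. Alternatives were other pseudocounts, filters, scaling, variance models, Welch's test and other choices of row. Promoter sequences came from RefSeq (GRCm38.p6).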

Additional observations from a re-analysis of the deposited data

How the results depend on the processing

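No member was called under any of the 10 alternatives run, and no member row under the 9 in which rows were counted. The signs of 87 of 89 member differences stayed as reported. With both genotypes centred on the median, *Yap1* became −0.03205 and *Ctgf* −0.002746 on the log2 scale. The adjusted p of *Tead2*, the member closest to the threshold, ranged from 0.242 to 0.478. The count of called genes among the 58 pathway genes, 2 as reported, was 1 with a mean over both genotypes above 5 RPKM, where *Nt5e* was not tested, and 1 with Welch's test, where *Myh6* was not called (adjusted p = 0.066). Over all genes the count of 336 became 197 without a filter on low values, 27 with Welch's test, 180 with centring and 187 with each coefficient of variation raised by 0.005. With centring the share of called genes that were higher went from 83.3% to 71.7%, and with Welch's test to 100%. Leaving out single hearts could not be run, since the table holds genotype summaries. No paired analysis was possible because the columns carry no replicate numbers. Read depth is not in the table, and the 4 hearts per genotype set the width of the intervals.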
